A study of Mus musculus with 30 samples.

Results

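Neurexins, neuroligins and leucine-rich repeat transmembrane proteins (LRRTMs) are adhesion molecules that hold both sides of a synapse together. The 9 genes described here were taken by name and not by their values, though earlier results of these data were known. The list holds the neurexin genes Nrxn2 and Nrxn3, the neuroligin genes Nlgn1, Nlgn2 and Nlgn3, and the LRRTM genes Lrrtm1, Lrrtm2, Lrrtm3 and Lrrtm4. They are 9 of the 19737 genes in the deposited table, and all 9 passed the filter on low values in every comparison.

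Neurexins sit in the presynaptic membrane and reach across the cleft to neuroligins and LRRTMs in the postsynaptic membrane, which makes the latter families alternative ligands of the same receptors. Nlgn1 is found mainly at excitatory synapses, Nlgn2 mainly at inhibitory ones and Nlgn3 at both, while LRRTMs organize excitatory synapses. Neurexin genes use alternative promoters to make long alpha and short beta proteins, and their splicing sets which partners they bind. The values below are sums over all transcripts of a gene, so these forms are not told apart.

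RNA of the whole brain was sequenced from male C57BL/6N mice in 30 libraries, 5 in each of 6 groups. HT mice carry 1 targeted allele of Arid1b, a gene for a subunit of the BAF chromatin remodelling complex, from the CRISPR/Cas9 line C57BL/6N-Arid1b em1Tcp with a truncating change at exon 5, and WT mice carry none. WT-P10 and HT-P10 brains were taken at postnatal day 10 with no treatment. WT-Veh, HT-Veh, WT-Flx and HT-Flx brains were taken at postnatal day 120 from mice whose dams drank 0.2% saccharin water from postnatal day 3 to 21, in the Flx groups with fluoxetine, a serotonin reuptake inhibitor, at 0.1 mg/ml. The drug thus reached pups through milk and ended at weaning. Which libraries share a litter is not given in the sources used here, so p-values measure only the spread between these libraries.

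Arid1b was lower in HT than in WT libraries, at 2234 ± 68.2 against 3263 ± 57.4 normalized counts at P10 (mean ± SD, n = 5 each), and 2372 ± 210 in HT-Flx against 3158 ± 196 in WT-Flx. At P120 the library labelled HT-Veh replicate 2 held 3361 Arid1b counts, above all 5 WT-Veh libraries, and the library labelled WT-Veh replicate 2 held 2320, below 3 of the HT-Veh libraries. Both were kept under their labels, and results that rest on them are given with and without them. The sums of normalized counts ran from 31578614 to 41801037 per library, read depth is unknown, and markers of neurons, astrocytes, oligodendrocytes and the other brain cell types were present in every group, with no listed marker at 0 in all libraries of a group.

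The transcripts of the 9 genes differ in base composition, also within each family of related proteins. The share of G and C over the whole transcript is given after the printed ends. The ends alone do not give the same order, at 54.4% in both Nrxn2 and Lrrtm3 and 56.7% in Nlgn3. Printed for 8 of the 9, all but Lrrtm2, are the last 90 coding bases of the longest coding transcript, stop codon included, read 5′ to 3′ from the GENCODE M21 transcripts (GRCm38), with the last 15 in capitals. In most of these genes the capitals encode the protein's C-terminal end, which binds PDZ domains of synaptic scaffolds, followed by the stop.
Nrxn2: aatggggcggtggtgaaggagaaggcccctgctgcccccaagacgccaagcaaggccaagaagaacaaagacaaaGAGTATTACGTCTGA
Nrxn3: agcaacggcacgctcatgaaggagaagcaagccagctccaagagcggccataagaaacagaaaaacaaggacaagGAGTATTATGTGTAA
Nlgn1: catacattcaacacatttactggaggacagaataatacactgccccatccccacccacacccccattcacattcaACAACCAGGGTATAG
Nlgn2: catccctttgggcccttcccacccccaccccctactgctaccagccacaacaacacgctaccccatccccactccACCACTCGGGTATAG
Nlgn3: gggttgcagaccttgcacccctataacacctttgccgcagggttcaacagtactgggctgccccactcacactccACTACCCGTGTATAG
Lrrtm1: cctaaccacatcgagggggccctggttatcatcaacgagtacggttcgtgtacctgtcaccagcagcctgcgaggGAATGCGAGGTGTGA
Lrrtm3: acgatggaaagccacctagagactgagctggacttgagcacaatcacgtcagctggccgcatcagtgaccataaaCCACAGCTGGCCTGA
Lrrtm4: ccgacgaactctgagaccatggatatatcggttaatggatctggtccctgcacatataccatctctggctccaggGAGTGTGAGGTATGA

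Within a family the capitals hold nearly the same codons, with changes mostly in the third base, and the transcript of the annotated Lrrtm3 ends differently from those of Lrrtm1 and Lrrtm4. The share of G and C over the whole longest coding transcript was 62.4% in Nrxn2 and 47.5% in Nrxn3. It was 60.7% in Nlgn2, 49.3% in Nlgn3 and 38.9% in Nlgn1. Among the LRRTM genes it was 56.1% in Lrrtm1, 44.5% in Lrrtm3 and 38.4% in both Lrrtm2 and Lrrtm4. At the third codon position, which rarely alters the protein, it reached 77.8% in Lrrtm1, 77.2% in Nrxn2 and 73.7% in Nlgn2, against 43.5% in Nlgn1 and 49.8% in Lrrtm2. Outside the coding region it was lowest in Lrrtm4 at 33.3%, Lrrtm2 at 36.0% and Nlgn1 at 37.0%.

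In GRCm38, Nrxn2 lies on chromosome 19 from 6418731 to 6544169 on the plus strand, and Nrxn3 on chromosome 12 from 88722876 to 90334935 on the plus strand. Nlgn1 lies on chromosome 3 from 25426215 to 26332460 and Nlgn2 on chromosome 11 from 69823122 to 69837784, both on the minus strand, and Nlgn3 on chromosome X from 101299168 to 101325963 on the plus strand. Lrrtm1 and Lrrtm4 lie on the plus strand of chromosome 6, from 77242689 to 77257791 and from 80018877 to 80810143, Lrrtm2 on the minus strand of chromosome 18 from 35209003 to 35215024, and Lrrtm3 on the minus strand of chromosome 10 from 63928472 to 64090277. Lrrtm1, Lrrtm2 and Lrrtm3 lie inside the alpha-catenin genes Ctnna2, Ctnna1 and Ctnna3, each on the opposite strand. Annotated exons of Lrrtm2 share 95 of their 6022 bases with Ctnna1, and those of Lrrtm1 and Lrrtm3 share 0 bases with their hosts. The use of strand in the counting is not given in the sources used here, and without it reads of an LRRTM gene and of its host cannot be told apart where they overlap.

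Per kilobase of the longest coding transcript, a scale on which genes can be compared, Nrxn2 was the highest of the 9 and Nlgn2 came next in all 6 groups, with ranges that overlapped in HT-Veh only. In WT-P10 libraries Nrxn2 stood at 3195 ± 187 normalized counts per kb and Nlgn2 at 2234 ± 87.3 (mean ± SD, n = 5). Nrxn3 followed at 864 ± 37.0 and Lrrtm1 at 831 ± 37.8, and these neighbours overlapped in range. Below them the order was Nlgn3 at 586 ± 11.5, Lrrtm2 at 354 ± 5.95, Lrrtm3 at 325 ± 10.1, Lrrtm4 at 232 ± 5.47 and Nlgn1 at 205 ± 9.12, with no overlap between neighbours. The order depended on the length used. Nlgn1 stood at 560 counts per kb of its median coding transcript in WT-P10, next to Lrrtm2 at 528, with overlapping ranges. On that scale Nrxn3, at 2125 ± 131, came before Nlgn2, at 1889 ± 90.6, in WT-Flx, with ranges that overlapped.

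In WT-Veh brains at P120 the order was the same but for 2 swaps. Lrrtm1 at 806 ± 92.1 and Nrxn3 at 803 ± 60.0 counts per kb changed places, as did Lrrtm3 at 294 ± 34.0 and Lrrtm2 at 247 ± 79.7, and each of these pairs overlapped in range. Nlgn1 was again last at 111 ± 25.5 counts per kb, below Lrrtm4 at 140 ± 30.6, with overlapping ranges. In HT-Flx brains Nrxn2 reached 4755 ± 931 and Nlgn2 3154 ± 420 counts per kb, while Nlgn1 stood at 75 ± 20.9.

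**Figure D1:**
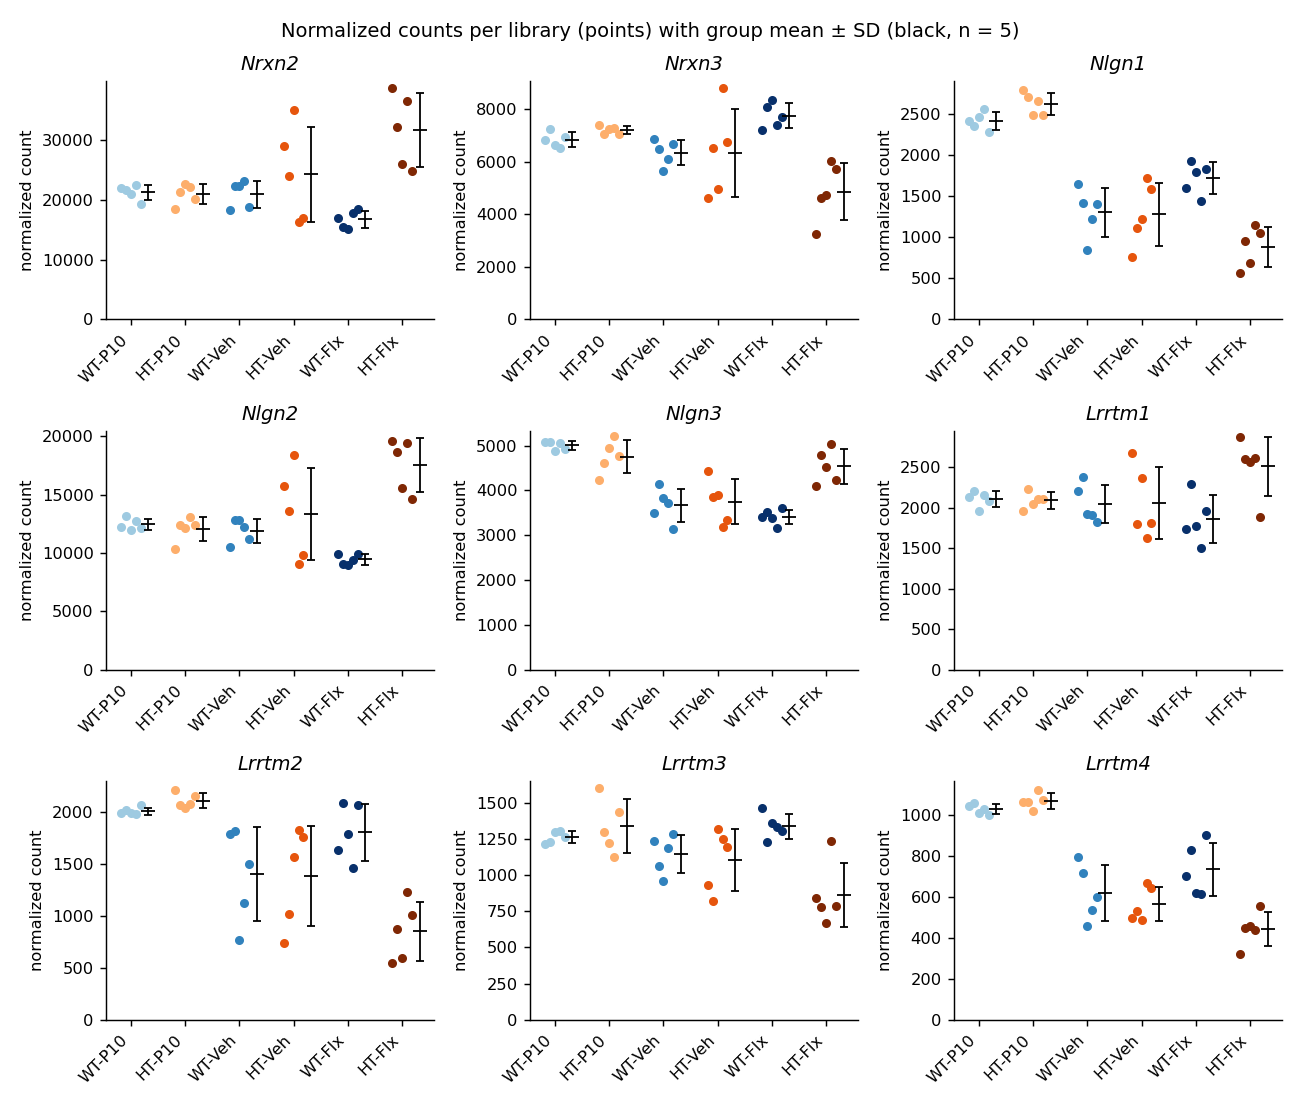
Normalized counts (vertical axes, linear and starting at 0) of the 9 genes in each of 30 libraries, by group, with the group mean ± SD in black (n = 5). The P10 libraries lie close together, Nlgn1 and Lrrtm4 are lower in every P120 library than in every P10 library, and HT-Flx stands apart from WT-Flx in opposite directions for different genes.

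At P10, HT and WT brains were compared to ask whether loss of 1 Arid1b allele changes these genes in pups. None of the 9 passed the test, a limma linear model with Benjamini-Hochberg adjustment at 0.05 over 17896 genes, in which 4 genes passed in all (0.0224%). Nlgn1 had the lowest unadjusted limma p among the 9 (0.0209), with 2792, 2711, 2493, 2656 and 2493 normalized counts in HT-P10 libraries. In WT-P10 libraries it had 2422, 2351, 2470, 2560 and 2280. The groups overlapped, and the log2 fold change was 0.12 ± 0.05 (SE), with a limma adjusted p of 0.344. The other 8 had log2 fold changes between −0.08 for Nlgn3 and 0.08 for Nrxn3. In 0 of the 9 did the groups lie apart, against 3.12% of all tested genes.

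The spread was small enough at this age to bound a difference. The widest 95% interval of the log2 fold change was that of Lrrtm3, a gene that binds neurexins like the other LRRTMs, from −0.10 to 0.24. For Nrxn2 it ran from −0.15 to 0.10 and for Nlgn2 from −0.17 to 0.08. In bulk tissue a lower value can stand for fewer cells of a type or less RNA per cell, and these cannot be told apart here or in any result below.

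At P120 the same question was asked of HT-Veh and WT-Veh, in replicates 1, 3, 4 and 5 of each. These are the libraries in the study's supplementary gene list for this comparison, while its legends give 5 animals per group. None of the 9 passed in limma, nor did any of 17784 genes (0%), and 229 genes had an unadjusted p below 0.05 (1.29%), 0 of them among the 9. The vehicle libraries varied far more than those at P10. Nlgn2, the neuroligin of inhibitory synapses, had 15772, 13564, 18416, 9043 and 9792 normalized counts in the 5 HT-Veh libraries. It had 10523, 12862, 12818, 12192 and 11158 in the 5 WT-Veh libraries, so that HT-Veh libraries 1, 2 and 3 stood above and libraries 4 and 5 below all of WT-Veh. Nlgn1 ran the other way, with 754, 1111, 1228, 1719 and 1587 counts in HT-Veh, lowest in library 1.

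The intervals were accordingly wide. For Nrxn2 the log2 fold change was 0.17 with a 95% interval from −0.38 to 0.72, and for Lrrtm2 0.17 with an interval from −0.54 to 0.89. Groups lay apart in 0 of the 9, against 1.04% of all tested genes. With all 5 libraries of each group the count that passed was again 0.

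Between fluoxetine groups, HT-Flx was compared with WT-Flx, which asks about genotype in mice reared on the drug. All 9 passed in limma, 4 of them higher in HT-Flx (Nrxn2, Nlgn2, Nlgn3 and Lrrtm1) and 5 lower (Nrxn3, Nlgn1, Lrrtm2, Lrrtm3 and Lrrtm4). The background was high, since 63.7% of 17799 tested genes passed, 33.1% higher and 30.5% lower. Libraries of the groups lay apart in 7 of the 9, all but Lrrtm1 and Lrrtm3, against 48.5% of all tested genes. The count among the 9 is therefore read against a comparison in which most genes of the brain differed.

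Among the presynaptic receptors, Nrxn2 had 38766, 32314, 25981, 36614 and 24849 normalized counts in HT-Flx libraries. In WT-Flx libraries it had 17018, 15522, 15111, 17820 and 18498. Every HT-Flx library was above every WT-Flx library, and the log2 fold change was 0.90 ± 0.13 (SE), a fold of 1.86, with a limma adjusted p of 8.67e-05 and an exact two-sided permutation p of 0.00794, the smallest that 5 against 5 can give.

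Nrxn3, the other presynaptic receptor, moved the opposite way. It had 3252, 4616, 4725, 6039 and 5736 normalized counts in HT-Flx, against 7219, 8102, 8374, 7410 and 7728 in WT-Flx, again with no overlap. Its log2 fold change was −0.70 ± 0.14, a fold of 0.615, with a limma adjusted p of 0.000933. The ratio of Nrxn2 to Nrxn3 within a library ran from 4.33 to 11.9 in HT-Flx and from 1.81 to 2.41 in WT-Flx.

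The neuroligins split as the neurexins did. Nlgn2, of inhibitory synapses, had 19594, 18656, 15530, 19445 and 14590 normalized counts in HT-Flx, against 9938, 9016, 8997, 9415 and 9885 in WT-Flx. Its lowest HT-Flx library was far above its highest WT-Flx library, with a log2 fold change of 0.88 ± 0.10, a fold of 1.85 and a limma adjusted p of 3.35e-05. Nlgn1, of excitatory synapses, had 561, 952, 690, 1148 and 1050 counts in HT-Flx, against 1602, 1930, 1792, 1442 and 1829 in WT-Flx. Every HT-Flx library was below every WT-Flx library, and the log2 fold change was −1.01 ± 0.18, a fold of 0.498, with an adjusted p of 0.000379. Nlgn3, found at both kinds of synapse, had 4090, 4794, 4533, 5028 and 4235 counts in HT-Flx, against 3396, 3511, 3374, 3168 and 3596 in WT-Flx. The groups did not overlap, and its log2 fold change of 0.41 ± 0.08 had an adjusted p of 0.000611.

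Among the LRRTM genes, whose proteins bind neurexins at excitatory synapses, 1 rose and 3 fell. Lrrtm1 had 2876, 2608, 2568, 2621 and 1893 normalized counts in HT-Flx, against 1741, 2298, 1778, 1502 and 1966 in WT-Flx, with replicate 5 of HT-Flx inside the WT-Flx range. Its log2 fold change was 0.44 ± 0.13, with a limma adjusted p of 0.0109. Lrrtm2 had 546, 874, 598, 1229 and 1005 counts in HT-Flx, against 1634, 2092, 1787, 1459 and 2066 in WT-Flx, and its log2 fold change of −1.14 ± 0.20 was the lowest of the 9, with an adjusted p of 0.000407.

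Lrrtm3 had 843, 778, 668, 1240 and 789 counts in HT-Flx, against 1466, 1227, 1362, 1336 and 1304 in WT-Flx. Replicate 4 of HT-Flx overlapped the lowest WT-Flx library, and the log2 fold change was −0.66 ± 0.14, with a limma adjusted p of 0.00125. Lrrtm4, which also binds heparan sulphate proteoglycans, had 321, 447, 458, 438 and 555 counts in HT-Flx, against 703, 829, 620, 614 and 904 in WT-Flx. These groups did not overlap, and its log2 fold change was −0.73 ± 0.15, with an adjusted p of 0.00118.

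The direction of the 9 genes followed the GC content of the whole longest coding transcript. The 4 genes with the highest GC content (Nrxn2, Nlgn2, Lrrtm1 and Nlgn3) were higher in HT-Flx, and the 5 with the lowest were lower. Over all tested genes the median log2 fold change went from −0.95 in the decile of lowest GC content to 0.74 in the decile of highest. The 3 genes of lowest GC content, at 38.4% and 38.9%, lay between the quartiles of that lowest decile, −1.24 and −0.58. Nlgn3, at 49.3%, stood above the upper quartile of 0.20 in its decile, whose median was −0.08.

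**Figure D2:**
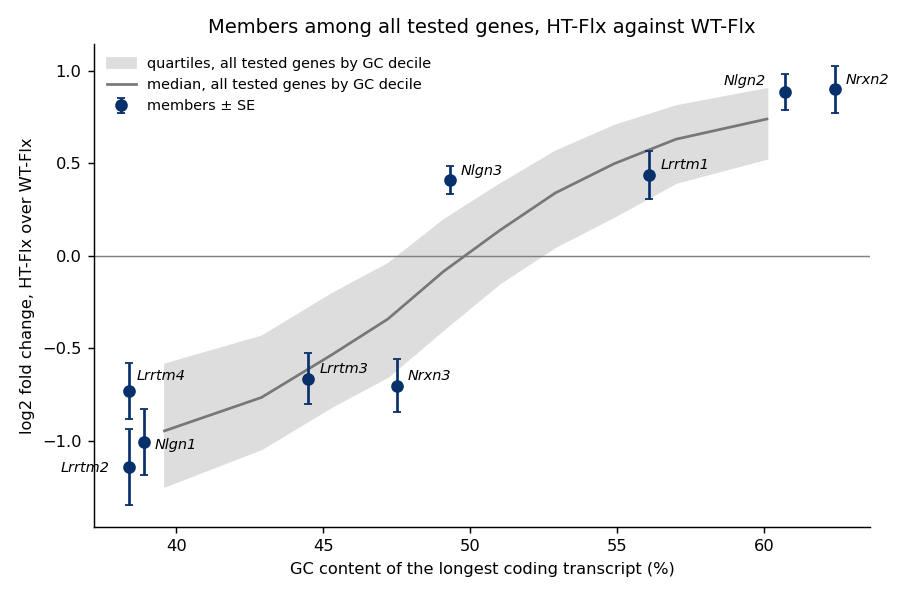
Log2 fold change of HT-Flx over WT-Flx (vertical axis) against GC content of the longest coding transcript (horizontal axis, %) for the 9 genes (points, ± SE), over the median and quartiles of all tested genes in deciles of GC content. The 9 genes run from Lrrtm2 at −1.14 to Nrxn2 at 0.90, with Nlgn3 above the band of all genes and Nrxn3 below its lower edge, while Lrrtm2, Lrrtm4 and Nlgn1 at low and Nlgn2 and Nrxn2 at high GC content lie beyond its ends.

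Libraries differed in this respect one by one. The slope of a library's log2 deviation with GC content, per 10 percentage points over 17945 genes, ran from 0.431 to 0.853 among HT-Flx libraries, and WT-Flx libraries had slopes from −0.267 to −0.171. At P10 it was between −0.458 and −0.237. In WT-Veh it ran from −0.125 to 0.336 and in HT-Veh from −0.254 to 0.567, positive in HT-Veh libraries 1, 2 and 3 and negative in libraries 4 and 5. The ratio of Nlgn2 to Nlgn1 was 13.9 to 34.9 in HT-Flx, 5.26 to 20.9 in HT-Veh, 6.37 to 15.2 in WT-Veh, 4.67 to 6.53 in WT-Flx, 4.85 to 5.58 in WT-P10 and 3.70 to 4.97 in HT-P10. The part that GC content or its handling plays in these differences was not tested.

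**Figure D3:**
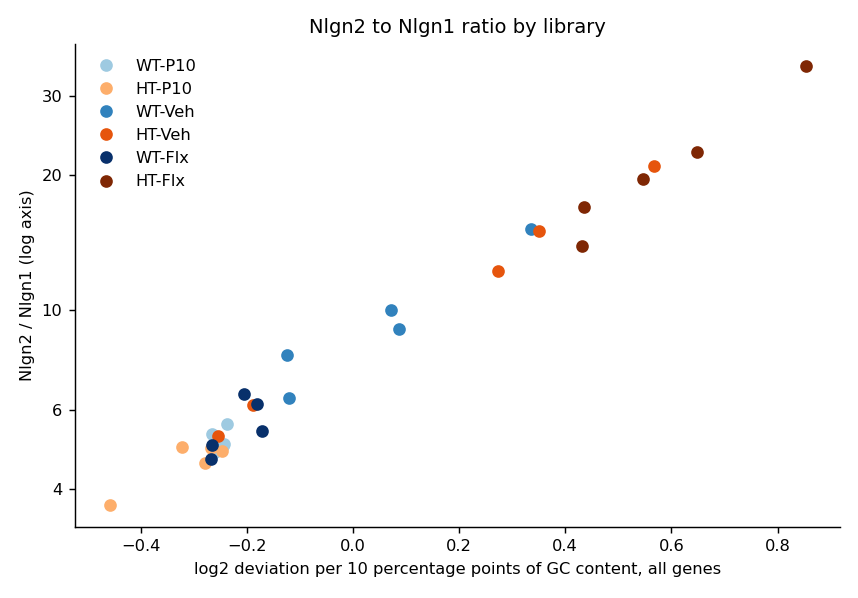
Ratio of Nlgn2 to Nlgn1 normalized counts (vertical axis, logarithmic) against the slope of each library's log2 deviation with GC content (horizontal axis, log2 per 10 percentage points), 1 point per library in 6 groups. The ratio runs from 3.70 in an HT-P10 library with a slope of −0.458 to 34.9 in an HT-Flx library with a slope of 0.853.

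With a correction of every library for GC content and transcript length, 3 of the 9 passed between HT-Flx and WT-Flx, against 35.9% of 17788 tested genes. Nlgn3 was higher in HT-Flx by 0.59 ± 0.09 on the log2 scale (limma adjusted p = 0.000461). Nlgn2 was higher by 0.14 ± 0.05 (adjusted p = 0.0409), and Nrxn3 had a log2 fold change of −0.23 ± 0.08 (adjusted p = 0.0307). For the other 6 the values were 0.16 ± 0.07 in Nrxn2, 0.10 ± 0.10 in Nlgn1, −0.15 ± 0.11 in Lrrtm1, −0.11 ± 0.11 in Lrrtm2, −0.17 ± 0.12 in Lrrtm3 and 0.24 ± 0.16 in Lrrtm4. Nlgn1, Lrrtm1 and Lrrtm4 thereby changed sign. Only Nlgn3 had a larger difference after the correction than before it.

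**Figure D4:**
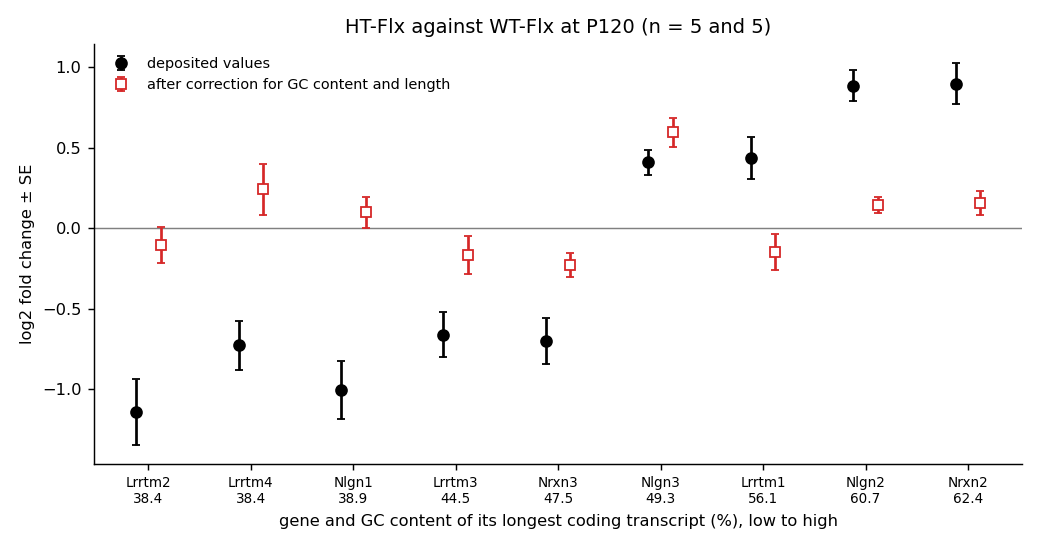
Log2 fold change ± SE of HT-Flx over WT-Flx (vertical axis, n = 5 and 5) of the 9 genes, ordered by GC content of the longest coding transcript (horizontal axis), from the deposited values (black) and with GC content and length corrected (open red squares). Before the correction the genes run from −1.14 to 0.90, and after it 8 of them lie between −0.23 and 0.24, with Nlgn3 at 0.59.

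Cell type markers also moved between these groups. The summed counts of 6 neuron markers were 97895 to 137864 in HT-Flx and 148979 to 165585 in WT-Flx, with 2 of the 6 higher and 4 lower. For 6 astrocyte markers they were 62745 to 97419 against 103450 to 115718, with 2 higher and 4 lower. The 6 markers of mature oligodendrocytes summed to 250439 to 279477 against 178474 to 236994, with 3 higher and 1 lower, and the 4 of oligodendrocyte precursors to 9149 to 12477 against 7511 to 8767, with 2 higher and 1 lower. The 4 markers of dividing cells summed to 58 to 81 in HT-Flx and 116 to 173 in WT-Flx, with 2 lower. Sums over glutamatergic and GABAergic neuron, microglia and endothelium markers overlapped between the groups. No marker was at 0 in any of these lists, and their part in the results was not tested.

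Fluoxetine was then compared with vehicle in each genotype. Between HT-Flx and HT-Veh none of the 9 passed in limma, nor did any of 17676 genes (0%), while 4082 genes (23.1%) and 5 of the 9 had an unadjusted p below 0.05. The log2 fold changes were 0.42 in Nrxn2, 0.44 in Nlgn2, 0.28 in Nlgn3 and 0.30 in Lrrtm1. They were −0.37 in Nrxn3, −0.53 in Nlgn1, −0.69 in Lrrtm2, −0.36 in Lrrtm3 and −0.36 in Lrrtm4. The signs are those of HT-Flx against WT-Flx, a comparison that shares the HT-Flx libraries. In 0 of the 9 did the groups lie apart, against 1.62% of all tested genes. HT-Veh libraries 1 and 3 lay inside the HT-Flx range for Nrxn2, at 29102 and 35066 normalized counts, and for Nlgn2. Over all genes the median log2 fold change went from −0.54 in the decile of lowest GC content to 0.37 in the decile of highest. With GC content and length corrected, the log2 fold changes were 0.055 in Nrxn2, 0.075 in Nlgn2, 0.017 in Lrrtm1, −0.13 in Nrxn3, −0.090 in Lrrtm2 and −0.10 in Lrrtm3, while Nlgn1 at 0.090 and Lrrtm4 at 0.21 changed sign. Nlgn3 alone of the 9 was farther from 0 than before, at 0.37 ± 0.14, and did not pass (limma adjusted p = 0.440).

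Between WT-Flx and WT-Veh again none of the 9 passed in limma, nor did any of 17865 genes (0%), with 4504 genes (25.2%) and 5 of the 9 at an unadjusted p below 0.05. Here the signs were reversed, with a log2 fold change of −0.33 ± 0.07 in Nlgn2 and −0.32 ± 0.09 in Nrxn2 against 0.29 ± 0.07 in Nrxn3, 0.42 ± 0.15 in Nlgn1 and 0.42 ± 0.21 in Lrrtm2. Nlgn2 and Nrxn3 had groups that lay apart, 2 of the 9, against 6.41% of all tested genes. The lowest limma adjusted p among the 9 was 0.0849, for both of these genes. The 5 WT-Veh libraries had 6865, 6477, 5669, 6114 and 6673 Nrxn3 counts, all below the lowest WT-Flx library. Without the vehicle libraries numbered 2 the count was again 0 in either genotype. Without WT-Veh replicate 1, 3 of the 9 and 1400 genes passed, and without WT-Veh replicate 5, 1 of the 9 and 624 genes did. Over all genes the median log2 fold change went from 0.31 in the decile of lowest GC content to −0.27 in the decile of highest. With GC content and length corrected, the values were −0.064 in Nlgn2, −0.053 in Nrxn2, 0.17 in Nrxn3, 0.053 in Nlgn1 and 0.099 in Lrrtm2, and none of the 9 passed.

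The difference between those effects, the interaction of genotype and fluoxetine over all 20 P120 libraries, passed in limma for 7 of the 9, against 27.3% of 17796 genes, with 3 higher (15.8% of all genes) and 4 lower (11.5%). Nlgn2 had the lowest limma adjusted p, at 0.0347, with an interaction of 0.77 ± 0.22 on the log2 scale. Permuting drug and vehicle labels within each genotype gave a two-sided permutation p of 0.00173 for it. That permutation assumes no drug effect in either genotype, so it is not a test of equal effects alone. Nrxn2, at 0.74 ± 0.25, and Nlgn3, at 0.38 ± 0.14, were the others with a more positive effect in HT. Those with a more negative effect in HT were Lrrtm2 at −1.11 ± 0.38, Nlgn1 at −0.95 ± 0.31, Nrxn3 at −0.66 ± 0.22 and Lrrtm3 at −0.59 ± 0.21. Lrrtm1 at 0.45 ± 0.20 and Lrrtm4 at −0.61 ± 0.23 did not pass, with limma adjusted p of 0.0935 and 0.0522.

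These interaction calls did not hold across settings. With the correction for GC content and length 0 of the 9 and 0 of 17785 genes passed (0%), and Nlgn3 had an interaction of 0.50 ± 0.18 (limma adjusted p = 0.153). Without the HT-Veh and WT-Veh libraries numbered 2, whose Arid1b counts go against their labels, 0 of the 9 passed. Leaving out single libraries gave 0 to 9 that passed, together with 0 to 7667 of all genes, and the fit in which all 9 passed, without HT-Veh 1, was the one with 7667. The single libraries whose loss took the count to 0 were WT-Veh 2, 3 and 4, HT-Veh 4 and 5, WT-Flx 2 and 3, and HT-Flx 1, and each of these also took the count over all genes to 0. Without WT-Flx 1 or 5 or HT-Flx 2 or 3, 2 of the 9 passed, with 2291 to 3130 of all genes.

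P120 vehicle brains were also compared with P10 brains of the same genotype. P10 mice had no saccharin water, so age and vehicle cannot be told apart. In WT, 4 of the 9 passed in limma, all lower at P120, where 58.2% of 17926 genes passed and 29.4% were lower. They were Nlgn1, Nlgn3, Lrrtm2 and Lrrtm4. In HT, the same 4 passed and were lower, where 51.1% of 17989 genes passed and 25.3% were lower. Without the vehicle libraries numbered 2 the same 4 passed in each genotype. In WT the groups lay apart for 4 of the 9, against 45.6% of all tested genes, and in HT for 3 of the 9, against 40.0%.

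Nlgn1 had 1652, 1412, 844, 1220 and 1402 normalized counts in WT-Veh, against the 2280 to 2560 of WT-P10 given above. Its log2 fold change was −0.92 ± 0.14 in WT (fold 0.529, limma adjusted p = 8.55e-05) and −1.09 ± 0.18 in HT (fold 0.469, adjusted p = 0.000312). Every vehicle library of either genotype was below every P10 library. Lrrtm4 had 1044, 1059, 1010, 1029 and 999 counts in WT-P10 and 792, 716, 456, 534 and 599 in WT-Veh. In HT it went from 1065, 1063, 1018, 1124 and 1071 to 497, 531, 488, 668 and 641. The log2 fold changes were −0.76 ± 0.13 in WT (adjusted p = 0.000187) and −0.93 ± 0.11 in HT (adjusted p = 2.66e-05), and neither genotype's groups overlapped.

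Lrrtm2 had 1991, 2020, 1991, 1985 and 2065 counts in WT-P10, a coefficient of variation of 1.68%, and 1793, 1823, 767, 1127 and 1501 in WT-Veh, with 32.3%. All vehicle libraries were below all P10 libraries, and the log2 fold change was −0.59 ± 0.19 in WT (limma adjusted p = 0.0174) and −0.69 ± 0.21 in HT (adjusted p = 0.0159). Nlgn3 had 5078, 5089, 4878, 5057 and 4917 counts in WT-P10 and 3497, 4144, 3823, 3721 and 3148 in WT-Veh. Its log2 fold change was −0.45 ± 0.07 in WT (adjusted p = 0.000155) and −0.35 ± 0.12 in HT (adjusted p = 0.0233). HT-Veh replicate 1, at 4443, overlapped the HT-P10 range for Nlgn3, and the gene did not pass without HT-P10 replicate 3 or 4 or HT-Veh replicate 5.

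The other 5 did not pass. In WT the log2 fold change was −0.02 ± 0.08 in Nrxn2, −0.06 ± 0.07 in Nlgn2, −0.05 ± 0.08 in Lrrtm1, −0.11 ± 0.06 in Nrxn3 and −0.15 ± 0.08 in Lrrtm3. The 95% interval for Nlgn2 ran from −0.22 to 0.09, and that for Nrxn2 from −0.20 to 0.15. In HT the values were 0.16 ± 0.19 in Nrxn2, 0.10 ± 0.18 in Nlgn2, −0.04 ± 0.14 in Lrrtm1, −0.22 ± 0.15 in Nrxn3 and −0.29 ± 0.15 in Lrrtm3, with wider intervals, from −0.30 to 0.49 in Nlgn2. The ratio of Nlgn2 to Nlgn1 thus went from a median of 5.04 in WT-P10 to 9.11 in WT-Veh. In HT it went from 4.86 in HT-P10 to 12.2 in HT-Veh. Both vehicle medians are the values of the libraries numbered 2. Without these libraries the ratio ran from 6.37 to 15.2 in WT-Veh, against 4.85 to 5.58 in WT-P10. In HT-Veh it then ran from 5.26 to 20.9, against 3.70 to 4.97 in HT-P10. With GC content and length corrected, the log2 fold changes of Nlgn2 and Nlgn1 lay closer together. They were −0.29 and −0.46 in WT, and −0.28 and −0.47 in HT.

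GC content moved with age as well. In WT the median log2 fold change of all genes went from −0.31 in the lowest decile of GC content to 0.29 in the highest. After the correction for GC content and length, Nlgn1 had a log2 fold change of −0.46 ± 0.06 in WT (limma adjusted p = 2.82e-05) and −0.47 ± 0.07 in HT (adjusted p = 9.38e-05), and Lrrtm4 had −0.36 ± 0.09 (adjusted p = 0.00523) and −0.42 ± 0.13 (adjusted p = 0.0122). Lrrtm2 did not pass in either genotype, at −0.11 ± 0.11 and −0.03 ± 0.08, and Nlgn3 passed in WT at −0.32 ± 0.07 (adjusted p = 0.00231) but not in HT at −0.13 ± 0.14 (adjusted p = 0.440). Nrxn2, Nlgn2 and Lrrtm1 passed as lower in both genotypes after the correction, at −0.24, −0.29 and −0.27 in WT and −0.22, −0.28 and −0.43 in HT. In all, 6 of the 9 then passed in WT, where 59.6% of 17915 genes did, and 5 of the 9 in HT, where 56.3% of 17976 did.

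**Figure D5:**
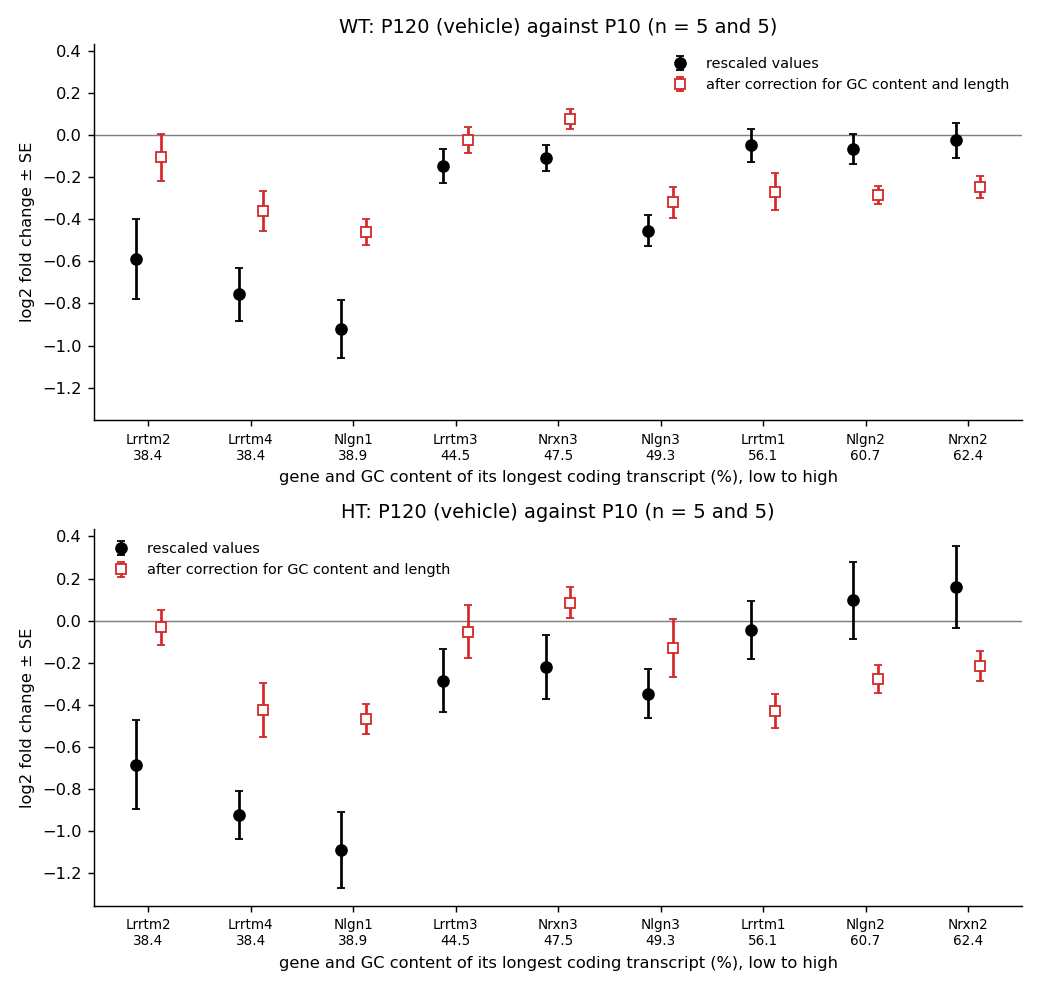
Log2 fold change ± SE of P120 vehicle over P10 brains (vertical axes, n = 5 and 5 in each panel) of the 9 genes, ordered by GC content (horizontal axes), in WT (upper panel) and HT (lower panel), from the rescaled values (black) and with GC content and length corrected (open red squares). Nlgn1 and Lrrtm4 lie below 0 in all 4 sets of values, at −0.36 to −1.09, while Lrrtm2 lies at −0.59 and −0.69 before the correction and at −0.11 and −0.03 after it.

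The difference between genotypes in the change with age, with vehicle replicates 1, 3, 4 and 5 of each, passed for 0 of the 9 and 0 of 17967 genes in limma (0%), with 614 genes (3.42%) at an unadjusted p below 0.05. Among the 9 it was farthest from 0 in Nrxn2, at 0.19 ± 0.25 on the log2 scale. Its 95% interval ran from −0.32 to 0.71. With all 5 vehicle libraries of each genotype, again 0 of the 9 passed. Markers of dividing cells summed to 1936 to 3407 counts at P10 and 73 to 165 in vehicle brains at P120, all 4 lower in both genotypes, and oligodendrocyte precursor markers to 12247 to 13853 and 7605 to 10756. Sums of the 6 general neuron markers were 162500 to 180195 at P10 in both genotypes and 114746 to 160251 in vehicle brains, with 2 of 6 higher and 3 lower in WT. Sums of neuron subtype markers went the other way, from 65009 to 76101 at P10 to 98551 to 180444 in vehicle brains for 6 glutamatergic markers, of which 2 were higher and 3 lower in each genotype. For 6 GABAergic markers they went from 22379 to 24436 to 31042 to 40429, with 4 higher and 0 lower in WT and 3 higher and 1 lower in HT. The part of cell composition in the age differences was not tested.

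A list of 57 genes held partners of these families and the 3 host genes of LRRTM loci, which were listed for their position only. The log2 fold changes of the 57, here and below, are without the correction for GC content and length. Of the 57, 10 were higher, 27 lower and 20 did not pass between WT-Veh and WT-P10 in limma. The host genes were 2 of the higher and 1 of the lower. Over all tested genes 58.2% passed and 29.4% were lower. The median log2 fold change of the 57 was −0.18 against −0.01 over all tested genes. The 3 lowest were Cask, a presynaptic scaffold that binds neurexin tails, at −1.25 ± 0.08, Mdga1, which blocks neuroligin binding, at −1.21 ± 0.08, and Lin7c, a partner of Cask, at −1.08 ± 0.14. Highest were Ctnna3, a host gene of an LRRTM locus, at 1.44 ± 0.24, C1ql2, a secreted synaptic organizer, at 1.29 ± 0.17, and Clstn1, a calsyntenin, at 0.72 ± 0.09. All 4 listed neuroligin regulators (Mdga1, Mdga2, Adam10 and Bace1) were lower. In HT, 8 were higher and 23 lower, where 51.1% of all tested genes passed and 25.3% were lower, with Cask at −1.43 ± 0.16, Mdga2 at −1.28 ± 0.20 and Lin7c at −1.28 ± 0.20 lowest. Ctnna3 at 1.32 ± 0.25, C1ql2 at 1.21 ± 0.13 and Flrt1, an adhesion partner of latrophilins, at 0.94 ± 0.12 were highest.

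The host genes had other values than the LRRTM genes inside them. Ctnna1 was higher at P120 in WT, by 0.71 ± 0.07 (limma adjusted p = 3.48e-06), where Lrrtm2 was lower. Ctnna2 had a log2 fold change of −0.67 ± 0.07 in WT, where Lrrtm1 did not pass, and Ctnna3 was higher, at 23 to 41 normalized counts in WT-P10 and 51 to 116 in WT-Veh, where Lrrtm3, at 962 to 1309 over both groups, did not pass.

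Between HT-Flx and WT-Flx, 21 of the 57 were higher, 22 lower and 14 did not pass, where 33.1% of all tested genes were higher and 30.5% lower, with a median of −0.13 against 0.02 over all tested genes. The lowest were Flrt2, an adhesion partner of latrophilins, at −1.30 ± 0.21, Lin7c at −1.24 ± 0.19, and Sytl2, which can bind neurexin tails, at −1.17 ± 0.16. The highest were 3 secreted neurexin ligands, Cbln1 at 1.47 ± 0.48, Nxph4 at 1.26 ± 0.21 and Nxph3 at 1.03 ± 0.14. In this comparison the median over all tested genes ran from −0.95 to 0.74 between the lowest and highest deciles of GC content. The part of GC content in the values of the 57 was not tested. Of the 13 listed neurexin ligands 7 were higher and 3 lower, and of the 8 postsynaptic scaffolds 2 were higher and 5 lower, against the 63.7% of all genes that passed in this comparison. Ctnna2 had −0.48 ± 0.11, opposite in sign to Lrrtm1, and Ctnna1 and Ctnna3 had values of −0.17 ± 0.08 and −0.73 ± 0.31 that did not pass. For the interaction 15 of the 57 were higher, 8 lower and 34 did not pass, where 15.8% of all tested genes were higher and 11.5% lower, with Nxph4 at 1.00 ± 0.35, Nxph3 at 0.92 ± 0.30 and Clstn1 at 0.87 ± 0.24 highest and Flrt2 at −1.10 ± 0.37, Lin7c at −1.04 ± 0.32 and the splicing regulator Ptbp2 at −0.98 ± 0.29 lowest. None of these interaction calls held with GC content and length corrected or without the vehicle libraries numbered 2, where 0 genes passed. None of the 57 passed at P10, between vehicle groups, between drug and vehicle within a genotype, or for the interaction with age.

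Within groups some of the 9 genes varied together. Over the 30 libraries, after each group mean was subtracted from log2 values, Nrxn2 went with Nlgn2 (Pearson r = 0.96) and Nlgn1 with Lrrtm2 (r = 0.95). Nrxn2 and Nrxn3 ran against each other (r = −0.695), as did Nlgn2 and Nrxn3 (r = −0.68) and Nlgn1 and Nlgn2 (r = −0.51). These are descriptions over 30 points, and genes measured in one library share its depth and base composition slope.

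Among 13196 genes with a mean of at least 100, the 2 most like each member over the 30 libraries, on the same group-centred scale, are given with the GC content of their longest coding transcript. For Nrxn2 they were Lrrc4b (r = 0.985, GC content 63.1%) and Akt1s1 (r = 0.982, 61.8%). For Nlgn2 they were AI837181 (r = 0.974, 60.5%) and Rell2 (r = 0.973, 62.0%), for Lrrtm1 Hpca (r = 0.950, 57.8%) and Nell2 (r = 0.934, 51.7%), and for Nrxn3 Slc7a14 (r = 0.971, 47.2%) and Kpna1 (r = 0.961, 42.1%). Nlgn1 was closest to Bzw1 (r = 0.969, 41.6%) and Map9 (r = 0.965, 42.7%), Lrrtm2 to Necab1 (r = 0.964, 39.5%) and Arid4a (r = 0.955, 44.0%), and Lrrtm4 to Cdh10 (r = 0.874, 43.2%) and Dclk1 (r = 0.868, 46.3%). Lrrtm3 was closest to Sept10 (r = 0.812, 44.0%) and Tmed7 (r = 0.806, 51.9%). Nlgn3 had Fgd1 (r = 0.854, 58.7%) and Chrna4 (r = 0.825, 55.7%), both of higher GC content than its own, as was also so for Nlgn1, Lrrtm2 and Lrrtm4.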

How the data were processed

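Poly-A RNA of 30 whole brains was prepared by the authors with a TruSeq RNA v2 kit and sequenced as paired-end reads. Per the study's methods and the submitters' processing notes, the authors quantified reads with Salmon 1.1.0 on GRCm38 with GC bias correction, summed them to genes and normalized them with DESeq2 1.30.1. The deposited values are therefore a normalized count signal, not whole reads, and depth is unknown, so precision comes from the spread between libraries. Identifiers were matched to symbols in GENCODE M21 for 99.9% of 19737 genes.

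Values were tested on the log2(value + 1) scale with limma 3.58.1 (R 4.3.3, intensity trend), for genes with a mean of at least 10 in the libraries of a comparison. P-values were adjusted with the Benjamini-Hochberg method over all tested genes at 0.05, and log2 fold changes on this scale understate changes of low genes. Comparisons between ages were first rescaled by median-of-ratios size factors. Exact two-sided permutation tests over libraries allow no p below 0.00794 for 5 against 5 and 0.0286 for 4 against 4. For the interaction with fluoxetine, drug and vehicle labels were permuted within each genotype. The correction for GC content and length sorted genes into 100 cells (10 classes of GC content, each split into 10 of length, from the longest coding transcript) and removed each library's own shift in every cell. Scripts were tested on simulated data.

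The 9 genes, the 57 listed genes (partners and LRRTM host genes) and the cell type markers were chosen with earlier results of these data known. Named genes of the 57 are, where any passed, the 3 highest and 3 lowest log2 fold changes among those that passed. The 3 LRRTM host genes are named as well. The genes most like each member are the 2 with the highest Pearson correlation. Alternatives were a pseudocount of 5 or 0.1, no filter or a mean of 100, other scaling, a replicate block, 1 fit over 20 libraries, the vehicle libraries numbered 2 in or out, each library left out in turn, and the correction with the block or with rescaling, the last 2 added after seeing the data.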

Additional observations from a re-analysis of the deposited data

Results flagged for a closer look

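The effect of fluoxetine differed between HT and WT in the limma test of the interaction for 7 of the 9 genes, against 27.3% of 17796 tested genes. These 7 are listed because 2 groups' effects under the same treatment differed. The interaction, HT minus WT on the log2 scale over 20 libraries, was 0.74 in Nrxn2, 0.77 in Nlgn2 and 0.38 in Nlgn3. It was −0.66 in Nrxn3, −0.95 in Nlgn1, −1.11 in Lrrtm2 and −0.59 in Lrrtm3. None passed with GC content and length corrected or without the vehicle libraries numbered 2. The GC content slope of the libraries moved with these values, and its part in them was not tested. No library stood far from the other 4 of its group in any of the 54 combinations of gene and group, by Dixon's ratio with a limit of 0.71, where chance gives about 1 in 20. Dixon's ratio looks for a single far library and cannot flag a group that splits. HT-Veh, for example, had 15772, 13564, 18416, 9043 and 9792 Nlgn2 counts.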

How the results depend on the processing

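Pseudocount, filter, scaling and the fit over 20 libraries left the number of the 9 genes that passed within 1.5 times of the reported one, and the correction for GC content and length did not. With it, 3 of the 9 and 6393 genes passed between HT-Flx and WT-Flx instead of 9 and 11330, the same 3 with rescaling added (6400 genes), and 0 of the 9 and 0 genes for the interaction of genotype and fluoxetine instead of 7 and 4852. That interaction also gave 0 and 0 without the vehicle libraries numbered 2. The cause was not tested. Depth is unknown, and the spread of the vehicle libraries widens every interval that rests on them.

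Replicate numbers were not taken as pairs, since in no comparison did every same-numbered pair correlate above 0.1. The r ran from −0.349 to 0.04 between the Flx groups and from −0.042 to 0.643 between HT-Flx and HT-Veh. With so few libraries this rule cannot exclude pairing. Between HT-Flx and HT-Veh the mean r was 0.279 for same numbers and −0.068 for others. Best matches had their own number in 4 of 5 libraries between WT-Veh and WT-P10, and in 0 between the Flx groups. With the replicate block 2 of the 9 and 1355 genes passed between HT-Flx and HT-Veh, and 7 genes instead of 4 at P10. The block also took the count for age in HT from 4 to 3 of the 9 (8410 genes), losing Nlgn3 (limma adjusted p = 0.0687), and for the interaction with fluoxetine from 7 to 8 (5542 genes), gaining Lrrtm4. With the block and the correction together, 1 of the 9 and 5273 genes passed between HT-Flx and WT-Flx, 0 of the 9 and 0 genes for the interaction, 2 genes between HT-Flx and HT-Veh and 8 at P10.

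With the correction, alone or with the block, the sign turned for these log2 fold changes. At P10 they became 0.017 in Nrxn2, 0.071 in Lrrtm1 and −0.0017 in Lrrtm4. Between vehicle groups they became 0.10 in Nrxn3 and −0.0094 in Lrrtm1. Between HT-Flx and WT-Flx they became 0.10 in Nlgn1, −0.15 in Lrrtm1 and 0.24 in Lrrtm4, with rescaling too. Between HT-Flx and HT-Veh they became 0.090 in Nlgn1 and 0.21 in Lrrtm4, and between WT-Flx and WT-Veh 0.055 in Lrrtm1 and −0.069 in Lrrtm4. For the interaction with fluoxetine they became 0.027 in Nlgn1, −0.045 in Lrrtm1 and 0.29 in Lrrtm4. With age they became 0.078 in Nrxn3 in WT, and −0.22 in Nrxn2, 0.084 in Nrxn3 and −0.28 in Nlgn2 in HT, and for the interaction with age 0.032 in Nrxn3, −0.081 in Lrrtm1 and 0.042 in Lrrtm3. Between vehicle groups with all 5 replicates, or with all 20 libraries in 1 fit, they became −0.053 in Nlgn1, −0.011 in Lrrtm1, −0.029 in Lrrtm2 and −0.069 in Lrrtm3, and the age interaction with all 5 became −0.10 in Lrrtm2.

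Leaving out single libraries gave 0 to 9 of the 9 for the interaction with fluoxetine, with 0 to 7667 of all genes. It gave 0 to 3 between WT-Flx and WT-Veh, with 0 to 1400 of all genes. For age in HT it gave 3 to 5, with 8121 to 10188 of all genes. Of 954 such fits of a gene, 821 kept the direction and call, 86 lost and 11 gained the call, and 36 changed sign, none of them in a log2 fold change that had passed. At P10 they ran from −0.059 to 0.019 in Nrxn2, from −0.079 to 0.0079 in Nlgn2 and from −0.039 to 0.011 in Lrrtm1. Between vehicle groups they ran from −0.032 to 0.33 in Nrxn2, from −0.23 to 0.079 in Nrxn3, from −0.17 to 0.27 in Nlgn1, from −0.058 to 0.28 in Nlgn2, from −0.033 to 0.13 in Nlgn3, from −0.036 to 0.20 in Lrrtm1, from −0.057 to 0.47 in Lrrtm2, from −0.085 to 0.11 in Lrrtm3 and from −0.16 to 0.11 in Lrrtm4. For age in WT they ran from −0.062 to 0.026 in Nrxn2. For age in HT they ran from −0.031 to 0.23 in Nlgn2 and from −0.15 to 0.037 in Lrrtm1. For the interaction with age they ran from −0.0064 to 0.36 in Nrxn2, from −0.28 to 0.14 in Nlgn1, from −0.011 to 0.34 in Nlgn2, from −0.028 to 0.22 in Lrrtm1, from −0.12 to 0.40 in Lrrtm2, from −0.15 to 0.039 in Lrrtm3 and from −0.20 to 0.053 in Lrrtm4.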
